A study of Mus musculus with 4 samples.

Results

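The chromatin modifiers and remodellers described here were 95 genes of 13558 gene names in the 3 deposited peak tables. They were chosen by gene name alone, as every row whose name begins with Kmt, Kdm, Setd, Hdac, Kat, Brd, Chd or Arid and a digit, or with Smarc, together with *Ezh1*, *Ezh2*, *Srcap*, *Ep400*, *Ino80* and *Carm1*. The group was proposed, with *Srcap* at its head, after results of these data were known. By this rule the CCI list held 449 of 33556 m6A peaks, the sham list 429 of 34406, and the table of differential peaks 59 of 4812.

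C57BL/6J mice were operated on at an age of 6 to 8 weeks, and the spinal cord was taken on day 7 for all 4 libraries. In chronic constriction injury (CCI) the sciatic nerve is loosely ligated with silk, and in sham surgery the nerve is treated alike without the ligature. The number of mice behind each library is not given in the sources used here. RNA fragments captured with an antibody against m6A (the IP library) were set against the RNA before capture (the input library), with 1 library of each kind per group. The RNA came from spinal cord tissue with its mix of cell types, so a changed mix of cells and a change within cells cannot be told apart. No value below has a replicate check and no test between CCI and sham was possible, so all differences describe these libraries only.

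N6-methyladenosine (m6A) is a mark on messenger RNA that is written by the METTL3 and METTL14 enzyme complex, and it is known to lie mostly in long internal exons and near the stop codon and the 3′-UTR. It is read by proteins that alter the stability, splicing and translation of the transcript. Chromatin modifiers add, remove or read marks on histones, and remodellers use ATP to move or exchange nucleosomes. In neurons both kinds of proteins are known to take part in the response of gene expression to activity and injury.

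Each m6A peak carried a fold enrichment, the ratio of IP over input in that peak. The median fold enrichment of the chromatin peaks was 5.91 in CCI and 6.00 in sham, against 5.73 and 5.70 for all peaks. A gene of the group held a median of 4 peaks in each list, whereas the median over all genes with a peak was 2. The spinal cord origin was checked by genes that mark neurons, glia and other cells of the cord, all 30 of which had a peak in each list, and by 8 markers of other tissues, of which 2 (*Prph* and *Neurod6*) had one. Read counts were not among the deposited values, and the sequencing depth is therefore unknown.

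Nearly all members carried m6A peaks in both groups. Of the 95 genes, 93 had a peak in CCI and 95 in sham, and the only members with a peak in 1 list alone were *Kdm4dl* (2 sham peaks, with fold enrichments of 18.6 and 5.81) and *Smarcd2* (1 sham peak, 3.20). All 3 of these peaks were weak, with log10 p-values of the authors' test of IP against input between -4.38 and -2.86. Of all 13554 genes with a peak in either list, 12408 had one in CCI and 12907 in sham. Members held more peaks per gene than genes at large, as given above. Among the RefSeq symbols that match the rule, 14 of 108 had no row, 8 of them protein coding. *Ezh2*, a catalytic subunit of Polycomb repressive complexes, and *Hdac1*, *Kdm4c* and *Smarca1* were among these and had no peak under any name, whereas *Kat5* had 2 peaks in each list that are named after another gene.

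Role classes were assigned by gene name. The group held 18 methyltransferases, 18 demethylases, 7 acetyltransferases, 10 deacetylases, 7 bromodomain readers and 11 genes of the CHD family. It also held 21 SWI/SNF and ARID genes and 3 remodellers of the INO80 class. A narrower reading of the names leaves out *Chd3os*, *Setd3*, *Setd6*, *Arid3a*, *Arid3b*, *Arid5a* and *Arid5b*, and keeps 86 genes in CCI and 88 in sham. The class values below include these genes. Among the methyltransferases, *Kmt2a*, a trithorax protein that marks active genes, and *Kmt2d*, an enhancer methyltransferase, shared the most rows over both lists, with 17 in CCI and 15 in sham for *Kmt2a* and 16 in each list for *Kmt2d*. *Kmt2c*, another enhancer methyltransferase, had 12 and 10 rows, and *Setd1a* 10 and 12. Rows of a gene can share bases, and those of *Setd1a* made up 7 distinct regions in CCI and 8 in sham. The gene with the most rows was *Arid1a* among the SWI/SNF and ARID genes (11 and 9), *Chd3* in the CHD family (10 and 10), *Kdm2a* among the demethylases (8 and 5), *Kat6b* among the acetyltransferases (7 and 6) and *Srcap* in the INO80 class (18 and 14). *Hdac5*, *Hdac7* and *Hdac11* each had 10 rows over both lists, the most among the deacetylases, and the bromodomain reader *Brd2* had 7 in CCI and 6 in sham.

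The group differed from the other peaks in where along the transcript its peaks lay. Internal exons, those that are neither the first nor the last, held 204 of the 449 chromatin peaks in CCI (45.4%, 95% Wilson interval 40.9 to 50.1%, counting error only) and 186 of 429 in sham (43.4%, 38.7 to 48.1%). Over all peaks this share was 21.0% in CCI and 19.9% in sham. Peaks of 1 gene share a transcript, and 54 of the 204 CCI peaks came from *Arid1a*, *Kmt2a*, *Kmt2c*, *Kmt2d* and *Srcap*. Counted by gene, 61 of the 93 members in CCI (65.6%) and 60 of the 95 in sham (63.2%) had an internal exon peak, against 30.7% and 29.8% of all genes with a peak. As a further count, each gene and exon class was taken a single time, with both UTRs of a gene as 1 entry. Internal exons then held 36.7% of the CCI and 36.4% of the sham entries of the group. This share was not computed over all peaks.

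**Figure D1:**
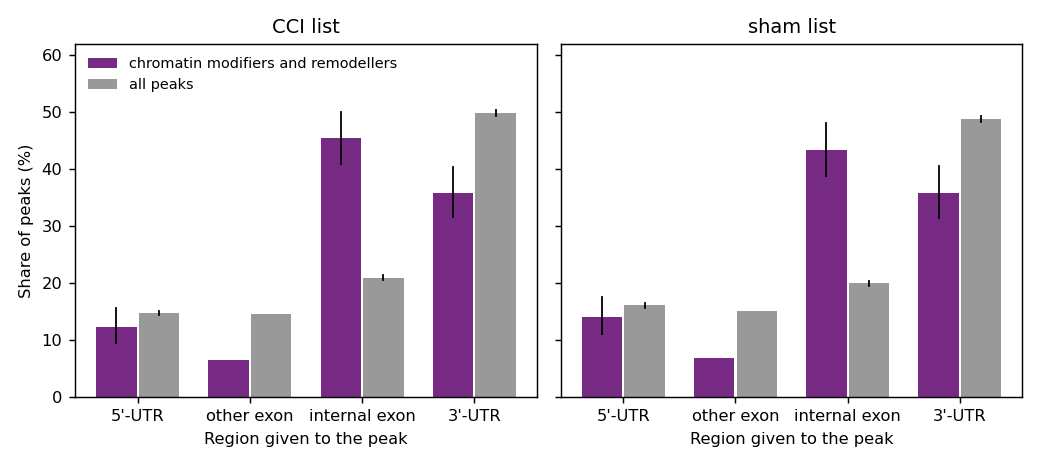
Share of m6A peaks (%) given to each region by the authors' annotation, in the CCI list (left) and the sham list (right), for the chromatin modifiers and remodellers (purple) and for all peaks (grey). Lines are 95% Wilson intervals for counting error, drawn for all regions but "other exon" (first, last and single exons); internal exons held 45.4% and 43.4% of the chromatin peaks against 21.0% and 19.9% of all peaks.

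The 3′-UTR, the usual site of m6A, held a smaller share of these peaks than of all peaks. It was given to 161 chromatin peaks in CCI (35.9%, 31.6 to 40.4%) and 154 in sham (35.9%, 31.5 to 40.5%), against 49.8% and 48.9% of all peaks. The 5′-UTR held 55 peaks in CCI (12.2%, 9.53 to 15.6%) and 60 in sham (14.0%, 11.0 to 17.6%), against 14.7% and 16.1%. The internal exon peaks of the group were longer, with a median of 270 bp in CCI and 271 bp in sham against 211 bp for all internal exon peaks in either list. Its 3′-UTR peaks lay a median of 1512 bp (CCI) and 1499 bp (sham) before the end of the gene, against 1047 and 989 bp for all 3′-UTR peaks. Some peaks with this label lay much further from the end, such as an *Ep400* peak in sham at 71219 bp. In 71 other chromatin genes outside the name rule, taken as a whole, internal exons held 45.8% of the CCI peaks and 43.8% of the sham peaks. Classes of these genes differed, from 15.0% and 15.8% in the Polycomb genes to 70.3% and 71.8% in the ISWI and BAZ genes.

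The strongest m6A peaks of the group lay in genes of several roles. The highest fold enrichment was that of an exon peak of *Kdm6b*, a demethylase that removes a repressive histone mark, at 1030 in CCI and 676 in sham. *Kmt2e*, a SET domain protein, reached 550 in CCI and 99.8 in sham at its strongest peak, which is annotated as 3′-UTR in CCI and as exon in sham. The 5′-UTR peak of *Arid1a*, a DNA-binding SWI/SNF subunit, stood at 472 in CCI and 450 in sham. *Kat6a*, an acetyltransferase, had a 3′-UTR peak of 165 in CCI and 401 in sham. In the CHD family and the INO80 class the highest values were 204 and 234 in *Chd3* and 28.5 and 20.4 in *Srcap*, for CCI and sham in this order. Among the deacetylases the highest CCI value was 57.3 in *Hdac8* (93.0 in sham), and the highest sham value was 102 in *Hdac6*, a cytoplasmic tubulin deacetylase (48.5 in CCI).

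*Srcap* encodes the ATPase of the complex that exchanges the histone variant H2A.Z into nucleosomes. The gene (ENSMUSG00000053877) lies on the plus strand at chr7:127511983-127561219 of GRCm38. Its 18 CCI rows ranked 12 among 12408 genes by number of rows, and its 14 sham rows ranked 32 among 12907. Many of these rows were near copies of each other, with borders shifted by a few bases, and rows that share bases made up 10 distinct regions in CCI and 8 in sham. Over all 95 genes, 449 CCI rows came down to 431 distinct regions and 429 sham rows to 415, so that *Srcap* held 8 of the 18 surplus rows in CCI and 6 of the 14 in sham.

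**Figure D2:**
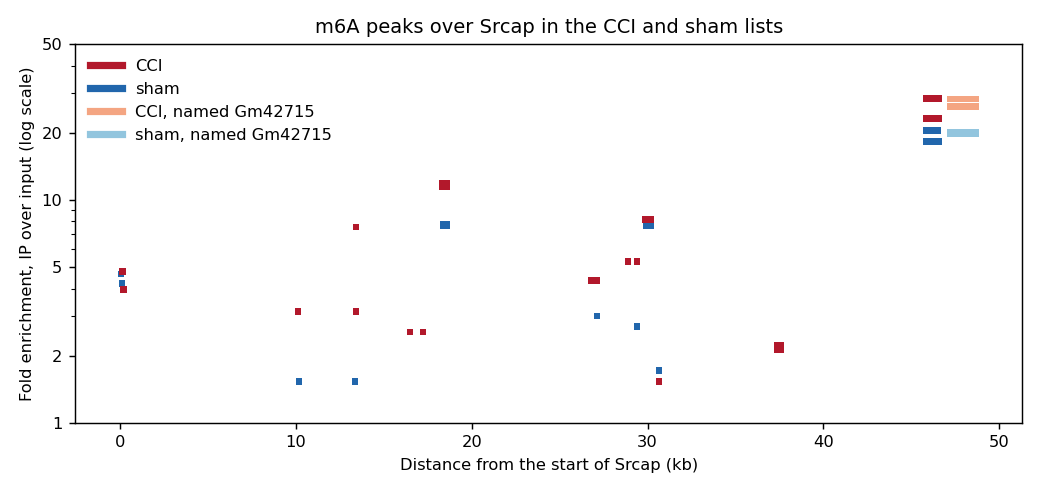
Fold enrichment (log scale) of each m6A peak over *Srcap* by the distance of its exonic blocks from the gene start (kb), for CCI (red) and sham (blue); short blocks are drawn wider than they are, and pale colours mark rows at the 3′ end that are named *Gm42715*. The strongest *Srcap* peak, in exon 33, had values of 28.5 and 23.2 in CCI and 20.4 and 18.2 in sham.

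The strongest *Srcap* peak lay in exon 33, at chr7:127557807-127558733 in CCI. Its pair of overlapping rows had fold enrichments of 28.5 and 23.2 in CCI and 20.4 and 18.2 in sham, so both CCI rows lay above both sham rows. By the best overlap the pair was 28.5 against 18.2, a log2 ratio of CCI over sham of 0.65. With the other rows of the same regions, 23.2 against 20.4, the difference was smaller. The peak over exon 11 was 11.5 and 11.9 in CCI against 7.66 and 7.80 in sham, a log2 ratio of 0.64 for the best pair. The exon 24 to 25 peak at chr7:127540857-127541505 stood at 5.28 in both CCI rows and at 2.71 and 2.70 in sham (log2 ratio 0.96). At these 3 regions the CCI values were above the sham values throughout.

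The other *Srcap* peaks were as follows. The long exon 25 peak was 8.17 in both CCI rows and 7.70 and 7.65 in sham, with log2 ratios of 0.09 for both pairs. Rows at the gene start were 4.77 and 3.96 in CCI and 4.65 and 4.22 in sham, with log2 ratios of 0.04 and -0.09. A short exon 25 peak was 1.53 and 1.54 in CCI and 1.72 in both sham rows (-0.17). A weak peak about 10 kb into the gene, which the annotation gives to the 3′-UTR of a short transcript, was 3.15 in CCI and 1.53 in sham (1.04, with a log10 p-value of -2.52 in sham). A second CCI row over part of the same bases stood at 7.56. The peak over exons 20 and 21 was 4.35 in CCI and 3.01 in sham (0.53). CCI peaks in exons 9 (2.55) and 26 (2.13 and 2.22) had no sham partner. The last peak within the gene, at chr7:127559003-127560830, is named *Gm42715* in both lists and so lies outside the rule. It stood at 26.2 and 28.3 in CCI and 20.0 and 19.9 in sham.

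Among its relatives, *Ep400*, the ATPase of a complex that joins nucleosome exchange to histone acetylation, had 8 peaks in CCI and 6 in sham. Its pairs were close, with log2 ratios from -0.14 to 0.53, and the largest was a peak of 23.5 in CCI and 16.3 in sham. That peak is annotated as 3′-UTR, but in sham it lay 71219 bp before the end of the gene. The 2 CCI peaks of *Ep400* without a partner were weak, at 1.88 and 2.22. *Ino80*, which slides nucleosomes and acts at sites of replication and repair, had 4 peaks in each list. Its 3′-UTR peaks were 7.05 and 3.89 in CCI and 5.39 and 3.10 in sham, its exon peak 3.65 against 5.58, and its 5′-UTR peak 3.75 against 9.30. The *Ino80* peaks were thus higher in CCI in the 3′-UTR and lower in CCI in the exon peak and in the 5′-UTR, where the signal was weak (log10 p-values of -2.89 and -4.13).

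*Carm1*, an arginine methyltransferase that acts as a coactivator of transcription, had 1 peak in each list under its own name, at different ends of the gene. The CCI peak was a weak one of 61 bp at the start (fold enrichment 12, log10 p-value -3.23). The sham peak lay in the 3′-UTR at chr9:21588099-21588667 with a fold enrichment of 7.74, and a CCI peak of 15.1 covered the same bases but is named *Yipf2*. The log2 ratio of that pair was 0.96. Differences in the name given to a peak touched 3 other pairs, of *Kat6a*, *Kdm1a* and *Setd1a*. In all, 17 CCI and 18 sham rows within 13 member genes carry another name.

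Most chromatin peaks had a counterpart in the other list. By an overlap of at least 1 base of exonic sequence, 389 of the 449 CCI peaks (86.6%, 83.2 to 89.5%) had a partner in sham, against 87.7% of all CCI peaks. In the other direction 389 of 429 peaks in sham (90.7%, 87.6 to 93.1%) were matched by a CCI peak, against 83.9% of all sham peaks. The chromatin peaks without a partner were weak in both lists, with a median log10 p-value of -4.25 in CCI and -4.44 in sham. Those with a partner had medians of -33.8 and -39.3. Over all peaks the medians were much the same without a partner (-4.26 and -4.04), and were -21 and -26.1 with one. Of the 60 chromatin peaks in CCI without a partner, 32 lay in exons, 23 in the 3′-UTR and 5 in the 5′-UTR. All 449 chromatin peaks in CCI split into 233, 161 and 55 in this order. The strongest by p-value was a 3′-UTR peak of *Smarca2* at 2.21, with a log10 p-value of -44.6, in the gene for an ATPase of SWI/SNF. Among the 40 in sham the strongest was a 5′-UTR peak of *Smarcc2* at 13.2 (-13.6).

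4 members had no pair of peaks between the lists. *Kdm4dl* and *Smarcd2*, named above, had none in CCI. *Kat2b*, an acetyltransferase, had a 61 bp peak of 1.78 in CCI and a separate one of 25.6 in sham, both in the 5′-UTR. *Smarcd1*, a SWI/SNF subunit, had a 3′-UTR peak of 2.65 in CCI and a 5′-UTR peak of 7.26 in sham. Over all genes, 11659 had a pair, out of 13554 with a peak in either list.

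To describe the change between the groups, each CCI peak was paired with a sham peak where each was the other's best overlap, which gave 375 pairs of the group out of 27380. The log2 ratio of CCI over sham had a median of 0.12 over the chromatin pairs, with quartiles of -0.24 and 0.45, and of 0.03 over all pairs (-0.37 and 0.43). It was above 0 in 231 chromatin pairs (61.6%), below 0 in 142 and exactly 0 in 2, whereas 51.8% of all pairs were above 0. Counted by gene, the median ratio was above 0 in 61 of the 91 members with a pair (67.0%), against 52.5% of all genes with a pair. The SD of the ratio over the chromatin pairs was 0.67. When each gene was instead represented by its highest fold enrichment in each list, the median log2 ratio of the group was 0.02.

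**Figure D3:**
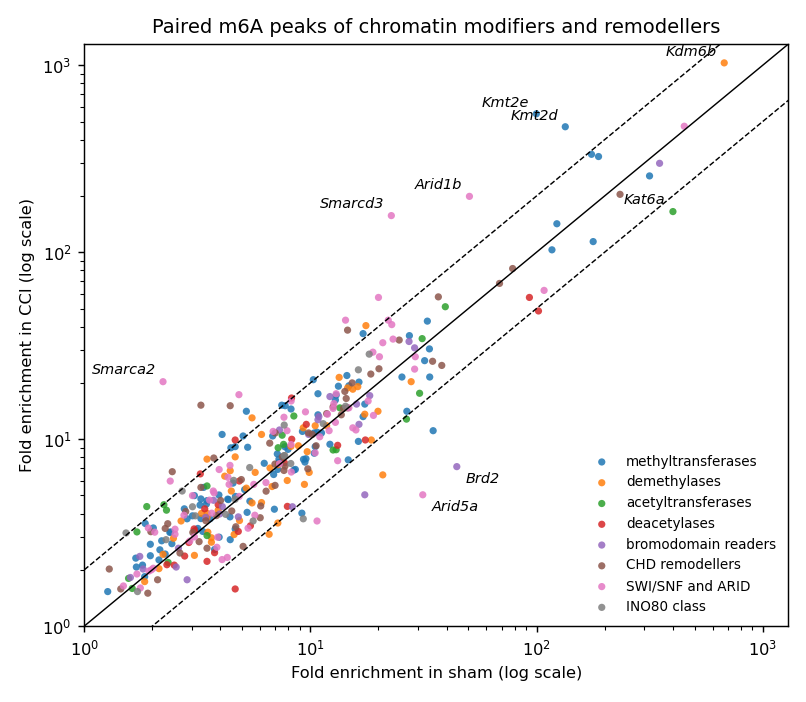
Fold enrichment of each of the 375 paired m6A peaks in sham (x axis) and CCI (y axis), both on log scales, coloured by role class; the solid line marks equal values and the dashed lines a 2-fold difference. Most pairs lie between the dashed lines, 29 lie on or above the upper and 14 on or below the lower line.

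Few of the chromatin pairs differed by 2-fold or more. A log2 ratio of at least 1 was reached by 29 of the 375 pairs (7.73%), against 8.59% of all pairs, and a ratio of -1 or less by 14 (3.73%), against 7.25%. The share that was at least 2-fold higher in CCI was thus near the background, and the share that was at least 2-fold lower was below it. Just inside these limits were *Hdac8* (log2 ratio 1) and *Hdac2* (1.01), and just outside were *Setd1a* (0.97) and a *Kat6b* peak (0.99). Over the 375 pairs the log2 fold enrichments of the lists had a Pearson correlation of 0.91 (Spearman's rho 0.88), against 0.85 over all pairs. Both lists share the same transcripts and gene models, so this is a description only.

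The median log2 ratio of the group was 0.12 in exons, 0.13 in the 3′-UTR and 0 in the 5′-UTR. Pairs above 0 made up 63.3%, 64.0% and 49.0% in this order, against 51.7%, 54.0% and 44.9% over all pairs. The split of the pairs past 2-fold also differed by region. Of the 188 pairs in exons, 11 were at least 2-fold higher in CCI and none lower, and the lowest log2 ratio was -0.94. Over all exon pairs 7.94% were at least 2-fold higher and 5.87% lower. Of the 136 pairs in the 3′-UTR, 7 were higher and 7 lower by this measure (5.15% each), against 8.40% and 6.46% of all 3′-UTR pairs. Of the 51 pairs in the 5′-UTR, 11 were higher and 7 lower (21.6% and 13.7%), against 10.6% and 12.9% of all 5′-UTR pairs, so 35.3% passed 2-fold in either direction, against 23.5%. The spread of the log2 ratio was 1.08 (SD) in the 5′-UTR, 0.57 in exons and 0.61 in the 3′-UTR.

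**Figure D4:**
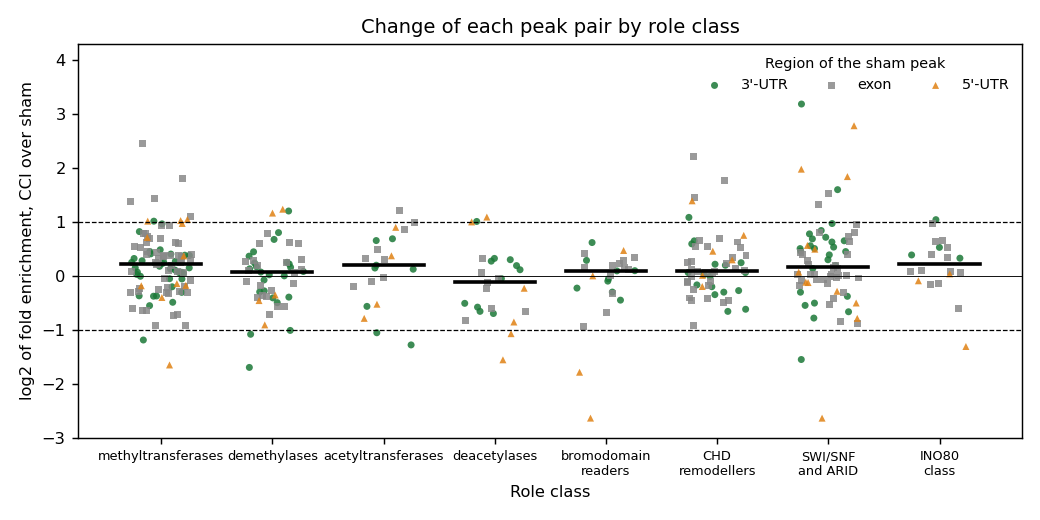
Log2 ratio of fold enrichment (CCI over sham) of each peak pair by role class, with the sham peak's region as the marker (green circles 3′-UTR, grey squares exon, orange triangles 5′-UTR); the horizontal bars are medians and the dashed lines a 2-fold difference. The medians run from -0.12 for the deacetylases to 0.22 for the methyltransferases, and no grey square lies below the lower dashed line.

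By role, the median log2 ratio was 0.22 over the 105 pairs of methyltransferases, 0.20 over the 21 of acetyltransferases, 0.17 over the 72 of SWI/SNF and ARID genes and 0.21 over the 20 of the INO80 class. It was 0.08 over the 56 pairs of the CHD family, 0.09 over the 25 of bromodomain readers and 0.07 over the 51 of demethylases. The deacetylases were the only class with a median below 0, at -0.12 over 25 pairs, and 15 of these pairs were lower in CCI. The quartiles of all classes overlapped, those of the deacetylases (-0.65 and 0.27) with those of the methyltransferases (-0.20 and 0.45). These differences between classes have no replicate check.

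Among the methyltransferases, 9 of the 105 pairs were at least 2-fold higher in CCI (8.57%) and 2 lower (1.90%). Over all pairs these shares were 8.59% and 7.25%. The largest difference was that of the *Kmt2e* peak named above, with a log2 ratio of 2.46 and strong signal in both lists. A *Kmt2d* exon peak at chr15:98863206-98864361 followed, at 469 in CCI and 134 in sham (1.81), while the other 14 *Kmt2d* pairs lay between -0.65 and 0.55. All but 1 of the 9 *Kmt2c* pairs were higher in CCI, with a median of 0.53 and a largest value of 1.10 (36.7 against 17.1). *Setd1a*, a subunit of the COMPASS methyltransferase complexes, had 10 CCI rows in 7 distinct regions and 12 sham rows in 8. Some of its pairs may therefore repeat a region. The gene was higher in CCI in 7 of 8 pairs, including a neighbouring pair of strong exon peaks. These were paired as 325 against 188 and 334 against 175, but sham held a further row of 345 over the bases of the second, so the direction there depended on the row that was paired. The largest difference downward was that of *Setd7*, a lysine methyltransferase, in the 5′-UTR (11.1 against 34.9, log2 ratio -1.65). A second, overlapping *Setd7* pair at the same start went the other way, at 15.2 against 7.47 (1.02).

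Demethylases were near balance, with 3 pairs at least 2-fold higher and 3 lower (5.88% each), against 8.59% and 7.25% of all pairs. *Kdm3a*, which removes a silencing methyl mark, had the largest difference upward, in the 5′-UTR at 13.0 in CCI and 5.52 in sham (1.24), with weak peaks in both lists. *Kdm5a*, a demethylase of active promoters, stood at 40.5 against 17.6 in the 3′-UTR (1.20). *Kdm2b*, which brings a Polycomb complex to CpG islands, was lower in CCI in all 4 of its pairs. The largest difference was at a peak annotated as 3′-UTR, with 6.44 against 20.9 (-1.70). Among the differential peaks this region lay 61871 bp before the end of the gene. *Kdm2a*, a close relative of *Kdm2b*, had 5 pairs between -0.41 and 0.26.

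Of the acetyltransferases, *Kat6a* had its strong 3′-UTR peak lower in CCI (165 against 401, log2 ratio -1.28), while 3 of its 5 pairs were higher and its median log2 ratio was 0.30. All 6 *Kat6b* pairs were higher in CCI, from 0.15 at its strongest 3′-UTR peak (34.5 against 31.2) to 1.21 at a weak exon peak of 4.36 against 1.89. *Kat14*, a subunit of the ATAC complex, was lower in CCI in 4 of 5 pairs, most in the 3′-UTR at 12.8 against 26.6 (-1.06). Its 5 rows made up 4 distinct regions in each list, so these pairs were not all separate.

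Of the 25 pairs of deacetylases, 3 were at least 2-fold higher in CCI (12%) and 2 lower (8%), against 8.59% and 7.25% of all pairs. Among them the largest difference upward was in the 5′-UTR of *Hdac7* (9.90 against 4.65, log2 ratio 1.09). The sham peak of that pair was weak, at 60 bp with a log10 p-value of -3.4. *Hdac2*, a deacetylase of nuclear corepressor complexes, had its 1 pair in the 3′-UTR at 16.6 in CCI and 8.25 in sham (1.01). *Hdac5*, a deacetylase that leaves the nucleus on neuronal activity, was lower in CCI in 4 of 5 pairs, most in the 5′-UTR at 1.58 against 4.65 (-1.56). *Hdac6* was lower in its 5′-UTR peak at 48.5 against 102 (-1.07). The 4 *Hdac11* pairs lay between -0.23 and 0.30.

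Of the 25 pairs of bromodomain readers, none was at least 2-fold higher in CCI, against 8.59% of all pairs. At least 2-fold lower were 2 pairs (8%), against 7.25% of all pairs. The largest difference upward was that of *Brd9* in the 3′-UTR (11.2 against 7.30, log2 ratio 0.62). *Brd2*, a reader of acetylated histones, had the class's only pairs past 2-fold, both in the 5′-UTR and both lower in CCI, at 7.13 against 44.4 (-2.64) and at 5.04 against 17.4 (-1.79). A neighbouring 5′-UTR peak of *Brd2* went the other way, at 16.9 against 12.2 (0.47), and its 3′-UTR peaks were 12 and 2.07 in CCI and 16.4 and 2.55 in sham. The 5′ region of *Brd2* thus held differences in both directions.

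In the CHD family 5 of the 56 pairs were at least 2-fold higher in CCI (8.93%, against 8.59% of all pairs). None was at least 2-fold lower, against 7.25% of all pairs. *Chd9* had both extremes of the class, with an exon peak of 15.2 against 3.28 (log2 ratio 2.21) and another of 2.67 against 5.04 (-0.92). The 9 *Chd3* pairs lay between -0.66 and 0.24, and 6 of them were lower in CCI. A 5′-UTR peak of *Chd4*, an ATPase of the NuRD complex like *Chd3*, stood at 38.3 against 14.6 (1.39).

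The SWI/SNF and ARID genes held 72 of the 375 pairs. Of these 72, 7 were at least 2-fold higher in CCI (9.72%) and 2 lower (2.78%), against 8.59% and 7.25% of all pairs. The share that was higher was thus near the background. The class held 3 of the 5 pairs with the largest differences upward and 1 of the 5 with the largest downward. The largest difference of all was a 3′-UTR peak of *Smarca2* at 20.3 in CCI and 2.23 in sham (log2 ratio 3.19), with log10 p-values of only -7.98 and -5.47, and the other 7 *Smarca2* pairs lay between -0.29 and 0.80. The 5′-UTR peak of *Smarcd3*, a subunit that ties the complex to transcription factors, was 157 against 22.8 (2.78), and that of *Arid1b*, a DNA-binding subunit, was 199 against 50.5 (1.98). *Smarcb1*, a core subunit, followed at 17.3 against 4.83 in its 5′-UTR (1.84). *Arid5a*, an RNA- and DNA-binding ARID protein, had the largest difference downward of the class, in the 5′-UTR at 5.04 against 31.4 (-2.64), while its strongest 3′-UTR peak was higher in CCI, at 43.3 against 14.3 (1.60).

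**Figure D5:**
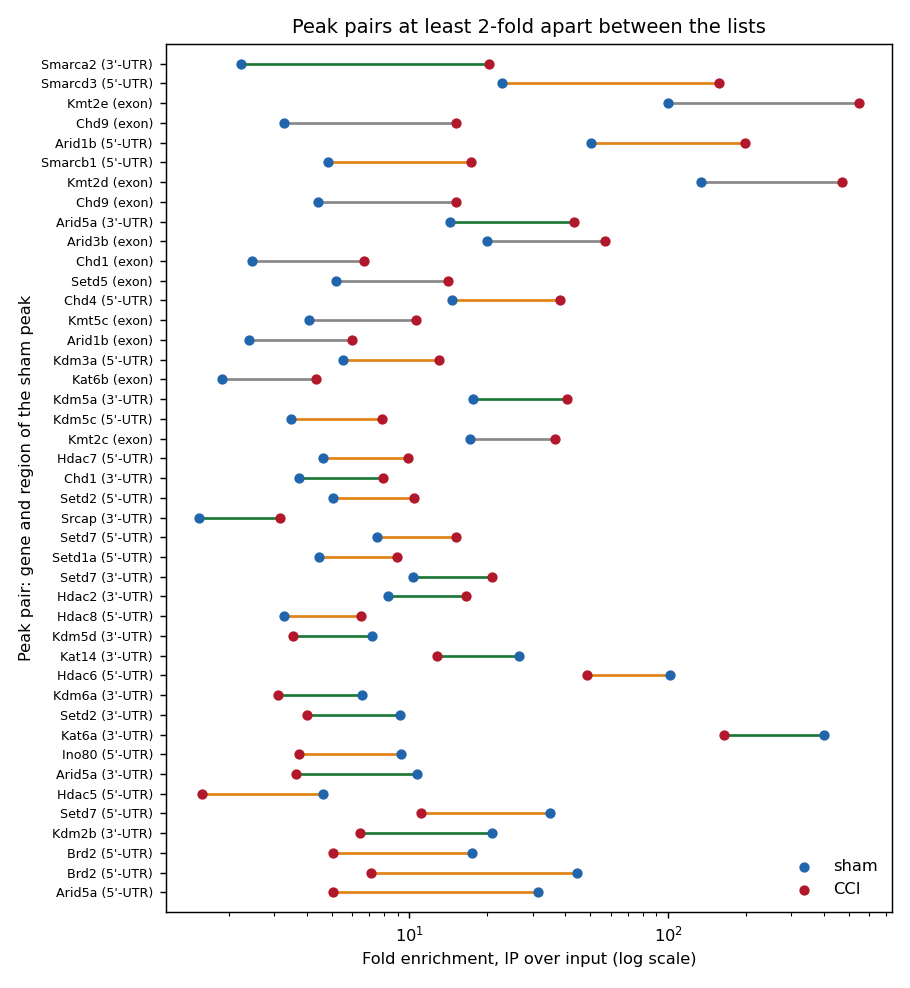
Fold enrichment in sham (blue) and CCI (red), on a log scale, of the 43 peak pairs that were at least 2-fold apart, ordered by their log2 ratio; the lines are green for the 3′-UTR, grey for exons and orange for the 5′-UTR. All 11 exon pairs have the CCI value to the right of the sham value, whereas the 5′-UTR pairs split into 11 to the right and 7 to the left.

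Of the 5 pairs with the largest differences upward 2 lay in the 5′-UTR, and of the 5 with the largest downward 4 did. Sequences around a selection of starts in 5′-UTR peaks are therefore shown. Each is the stretch of 30 bases around a RefSeq start of GRCm38.p6 that lay within a peak of the gene in both lists, with the 15 bases before the start in lower case and the first 15 transcribed bases in capitals, given 5′ to 3′ on the strand of the gene. The first 3 belong to peaks that were higher in CCI, the next 3 to peaks that were lower, the seventh to a *Setd7* start where overlapping pairs went both ways, and the last to *Srcap*, where the values were alike. The *Arid5a* start lay within a peak in sham only and is not shown. Also left out are the starts of *Hdac11* (log2 ratio -0.23) and *Smarca5* (0.49), which lay within a peak in both lists.
Smarcd3 (chr5:24601988-24602017, minus strand): agggcagccctgaagGGGCCCCCTCCCCAC
Arid1b (chr17:4995059-4995088, plus strand): gcggcctcttcctccTCGGCGGGCCCCGGC
Smarcb1 (chr10:75921600-75921629, minus strand): ggcgcgcacgttagcGTCAGCTTCTCCACG
Brd2 (chr17:34119886-34119915, minus strand): tcttccttgtttcagATTCTCCACTGCGGC
Ino80 (chr2:119477673-119477702, minus strand): ttgttctggcctggcTATGGCGCCTCTCCT
Hdac6 (chrX:7947875-7947904, minus strand): ggctgggcgggagatGGGCGGAGGCTTGGA
Setd7 (chr3:51560809-51560838, minus strand): tcacaggagaaagttGCAGTGGCGGCAGCA
Srcap (chr7:127511968-127511997, plus strand): cctacccgccccttcAGCCTCCAGTTACTG

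RefSeq gave 96 starts for 71 of the members, and 20 of these starts lay within a peak of the group. The letters GGACT, the most common core of the m6A motif, were searched in the first 50 transcribed bases. They were found on the transcribed strand at 2 of the 96 starts (2.08%), against 5.76% of all 32851 starts, and at 6 (6.25%) on the other strand, against 4.87%. None of the 20 starts within a peak had these letters on the transcribed strand. The first transcribed base was A at 5 of the 20 starts (25.0%), against 34.4% of all starts. A match or its absence describes these letters in this window only.

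The table of differential peaks, which the authors made from both groups, listed 32 of the 95 members (33.7%), against 25.3% of all genes with a peak. The group was proposed with the contents of this table known, so nothing is read from that difference. Its 59 chromatin rows lay in exons (26), the 3′-UTR (25) and the 5′-UTR (8), and rows that share bases made up 55 distinct regions. *Srcap* had 7 of these rows, the most of the group, but they covered 4 distinct regions, including those of exons 11, 24 to 25 and 33 described above. By the fold enrichments of the overlapping list peaks, 25 of the 53 rows with a peak in both lists were higher in CCI and 28 lower, and 9 were at least 2-fold apart. The other 6 rows, of *Arid1a*, *Chd6*, *Kdm6a*, *Setd5*, *Smarca2* and *Smarcd1*, overlapped a peak in CCI only. This holds for the bases of the row, since all 4 *Kdm6a* peaks of the CCI list were paired with a sham peak. By this measure the rows of *Hdac5*, *Kat14*, *Kdm2b*, *Kmt2a*, *Kmt2d* and *Chd5* were all lower in CCI, and those of *Arid4b*, *Chd9* and *Srcap* all higher, among genes with more than 1 such row.

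Other genes of the same complexes and pathways had log2 ratios centred near 0. Of 71 further chromatin genes, 68 had a peak, 65 in both lists, and those with none were *Wdr5*, *Actl6a* and *Mta2*. Their 220 pairs had a median log2 ratio of -0.01, with quartiles of -0.40 and 0.47. In CCI 15 were at least 2-fold higher (6.82%) and 13 lower (5.91%), against 8.59% and 7.25% of all pairs. Of the 12 genes listed as partners of SRCAP, EP400 and INO80, all had a peak and 9 had one in both lists. Their 19 pairs had a median of -0.03, with 3 pairs at least 2-fold higher (15.8%) and 1 lower (5.26%). *Vps72*, a subunit that handles the histone variant exchanged by SRCAP, had its 1 pair at 57.3 in CCI and 11.6 in sham (2.30). The Polycomb genes had a median of -0.09 over 18 pairs, with 1 higher (5.56%) and 3 lower (16.7%).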

How the data were processed

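The labels name GRCm38 with fastp, HISAT2, HOMER and ChIPseeker in the submitters' processing notes, whereas the methods of the paper name Cutadapt, bowtie, MACS2 and ChIPseeker, and the column names are those of exomePeak. The libraries were strand-specific, and whether strand was used in peak calling is not stated, so overlapping genes on opposite strands could not be separated. The fold enrichment deposited by the authors is a ratio of IP over input per peak, and their log10 p-value and log10 false discovery rate were treated as a score. The differential table also holds the authors' own comparison (a log2 fold change, a p-value and a false discovery rate), which was not used. The 3 tables give no counts, so depth is unknown.

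Peaks were compared by exonic blocks (at least 1 shared base) and paired as mutual best overlaps by shared over joint bases. A pair was counted as different at a log2 ratio of 1 or more in size. Groups came from the sample labels. The members and gene lists were chosen with earlier results of these data known. Genes were named by rule: *Srcap*, *Carm1*, *Ep400* and *Ino80*, in each role class the gene with the most peaks, the highest fold enrichment, and the pairs with the largest differences up and down, the 5 largest differences in each direction, and members with peaks in 1 list or no pair; the others were chosen after their values were seen, and some results that the rule names are not reported here. Alternatives covered peak filters, overlap, unit of counting and centring. 94 of the 95 names were RefSeq symbols, all with a peak over that gene. Overlap and pairing were tested on simulated lists. Scripts ran in Python 3.11.15 (pandas 2.3.3 and numpy 2.4.6, with intervals from scipy 1.17.1).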

Additional observations from a re-analysis of the deposited data

How the results depend on the processing

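With 1 library per group, no replicate could be left out. No paired analysis was possible because there is a single IP library for CCI and for sham. Of 62 values under alternatives, 50 stayed within 1.5 times (counts) or within the 95% counting interval (shares; for the median, its order-statistic interval over pairs) of those reported, and 12 did not. An overlap of 50% of both peaks lowered the share of peaks with a partner to 80.4% in CCI and 84.1% in sham. Counting a region just 1 time per gene, the shares became 41.0% (3′-UTR), 36.7% (exon) and 22.3% (5′-UTR) in CCI. In sham they became 36.2% (exon) and 23.2% (5′-UTR), since genes with many exon peaks then count less. Internal exons held 36.7% in CCI and 36.4% in sham, of a different set of entries in which both UTRs of a gene count as 1. With the highest fold enrichment of each gene, the median log2 ratio was 0.020 over 93 genes, and the cause was not tested. At a log2 ratio of 0.5, 88 pairs were higher and 52 lower in CCI (23.5% and 13.9%, against 22.1% and 19.4% of all pairs), as a lower limit admits more pairs. Counting overlapping rows as 1, an alternative chosen after seeing the data, gave 28 pairs higher and 14 lower. Fold enrichments are given without a counting error, which could not be computed because depth is unknown.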

Other observations

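Some fold enrichments recurred exactly, with the same p-value, in many unrelated genes of a list. Peaks whose pair of values was shared by at least 15 genes made up 1690 of the 33556 CCI peaks (5.04%) and 2481 of the 34406 sham peaks (7.21%), and 11 (2.45%) and 18 (4.20%) of those of the chromatin modifiers and remodellers. Such values entered 10 of the 375 pairs, and 5 of these were at least 2-fold apart. These were *Kdm3a*, *Setd2*, *Setd1a* and *Chd9* pairs that were higher in CCI and the weaker *Brd2* pair (5.04 against 17.4) that was lower. What makes these values recur was not tested.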
